A study of Mus musculus with 232 samples.

Results

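The cytosolic ribosomal protein genes are described here in single mouse embryonic stem cells (ESCs). They were taken by symbol, as protein-coding genes whose name starts with Rpl or Rps and a digit, together with Rplp0, Rplp1, Rplp2 and Rpsa, without the Rps6k kinases and without symbols that end in -ps and a number. This gave 86 genes of the 42493 gene identifiers in the files. Of these, 43 encode proteins of the large subunit, 31 proteins of the small subunit and 3 the acidic stalk, 8 are copies of another member, and Rps19bp1, which encodes a protein that binds Rps19 and is not part of the ribosome, met the rule by its symbol alone. A mean of 5 counts or more over all cells was reached by 84 of them, and by 11186 genes in all. The exceptions were Rpl3l, which is best known from muscle, and Rps27, whose copy Rps27rt held nearly all counts of the pair.

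Dgcr8 is needed to process most microRNAs (miRNAs), so that a mimic introduced into Dgcr8-/- ESCs acts almost without other miRNAs. The cells compared were 60 Dgcr8-/- cells that were mock transfected, 58 Dgcr8-/- cells transfected with a miR-294 mimic, 48 Dgcr8-/- cells transfected with a let-7 mimic and 16 wild-type (WT) cells titled V6.5, which the study's methods call the parental line. All were grown in DMEM with FBS, LIF and the inhibitors PD0325901 and CHIR99021 (2i), and were captured on a Fluidigm C1 chip at 24 h after transfection, with 1 chip for each condition. The submitters' labels give Dharmafect 1 for WT cells too, and do not say whether the WT cells received a mimic-free mock. The names given to the let-7 mimic differ between the sources, being let-7i in the sample titles, let-7b in the series text and let-7c in the study's methods, and it is called let-7 here. A few miR-294-transfected cells are titled MIR_294_ and the others miRNA294_. They were pooled because their genotype label is the same. Chip, culture and condition cannot be told apart, so each condition is 1 sample, no difference between conditions was tested, and values of single cells are given as a description of that sample.

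A ribosome holds a single copy of nearly every ribosomal protein, and a growing cell makes these proteins in equal numbers from some of its most abundant mRNAs. These mRNAs start with a C followed by a run of pyrimidines, the terminal oligopyrimidine (TOP) tract, through which mTOR and Larp1 control their translation, and Myc proteins promote the transcription of ribosomal protein and ribosome assembly genes. ESCs in 2i divide rapidly and depend on this supply. miR-294 belongs to the family of miRNAs that dominates in ESCs, and let-7 to a family that accumulates when ESCs differentiate.

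The mature sequences of the miRNAs are shown because they define the treatments, with the seed (bases 2 to 8) in capitals, as RefSeq gives them on GRCm38.p6.
mmu-miR-294-3p (chr7:3220691-3220712, plus strand): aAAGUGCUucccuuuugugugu
mmu-let-7b-5p (chr15:85707325-85707346, plus strand): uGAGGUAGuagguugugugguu
mmu-let-7c-5p (chr15:85706616-85706637, plus strand): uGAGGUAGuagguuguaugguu
mmu-let-7i-5p (chr10:122985698-122985719, minus strand): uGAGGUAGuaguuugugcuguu
The let-7 forms that the sources name share 1 seed, so the letters searched for in mRNAs are the same whichever was used.

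Ribosomal protein mRNAs have short 3′ untranslated regions (UTRs), and few held a match to either seed. The longest annotated 3′ UTR (GENCODE M21) had a median of 166.5 bases over 84 members and of 1199 bases over the 10304 genes past the count minimum that have one. The complement of the miR-294 seed, AGCACTT on the mRNA strand, was found in 6 members (7.14%) and in 18.2% of all these genes. The complement of the let-7 seed, CTACCTC, was found in 2 members (2.38%) and in 10.6% of all. Sites in 3′ UTRs of 256 (Rpl11) to 875 bases (Rpsa) are shown with the match in capitals, because the members that hold them can be followed in the comparisons. These longest annotated forms exceed the members' median length, and whether the mRNAs of these cells carry them was not measured.
Rpl11, miR-294 match: cctgggaccacaAGCACTTaaagaaagcct
Rpl23, miR-294 match: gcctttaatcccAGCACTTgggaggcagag
Rpl37, miR-294 match: gcctttattcccAGCACTTggtgacaggtg
Rpsa, first of 2 miR-294 matches: gggcctgtgaatAGCACTTgggctgggagg
Rpsa, let-7 match: tcatagatccttCTACCTCcagattggaga
The other members with a miR-294 match were Rps15a and Rps20, in 3′ UTR forms of 4728 and 3167 bases. A match of 7 letters is a description of the sequence and not a measured site.

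The deposited values came from 232 sequencing runs of 182 cells. Summed over the runs of a cell, the total count lay between 513521 and 3979274, and the median number of genes counted was 7734 to 8030 in the 4 conditions. All 8 markers of ESCs that were looked up (Pou5f1, Sox2, Nanog, Zfp42, Esrrb, Klf4, Sall4 and Tfcp2l1) were counted in each condition, with a median summed level of 3890 CPM (counts per 1000000) in Dgcr8-/- cells, 4200 in WT, 4580 in miR-294-transfected and 1340 in let-7-transfected cells. Each of the 8 had a lower median in let-7-transfected than in Dgcr8-/- cells. Nanog had 13.6 against 374 CPM and Sall4 90.2 against 667 CPM. Of 8 fibroblast markers, Col1a2, Col3a1, Lum and Postn had no count in any cell, and the median summed level was 0 in every condition. Col1a1, Thy1, Pdgfrb and Dcn were counted in a few cells. The highest summed level was 14.9 CPM in Dgcr8-/-, 3.08 in WT, 25.7 in miR-294-transfected and 202 in let-7-transfected cells, the last from Dcn. Markers of primitive endoderm, mesoderm, neural cells and epiblast were also looked up. Their median summed levels were 0, 0, 0.788 and 25.1 CPM in Dgcr8-/- and 0, 0, 2.92 and 4.47 CPM in let-7-transfected cells. The highest cells had 114, 379, 98.8 and 468 CPM in Dgcr8-/- and 222, 154, 283 and 277 CPM after let-7. Dgcr8 itself had a median of 7.80 CPM in Dgcr8-/- cells (0 to 586), 45.8 in WT (2.05 to 490), 22.5 in miR-294-transfected (0 to 245) and 6.97 in let-7-transfected cells (0 to 152). The ranges overlapped, and as the sources used here do not say which part of the gene the reads came from, this does not check the genotype of a cell. The mitochondrially encoded share of counts had medians of 3.68% in Dgcr8-/-, 2.73% in WT, 2.37% in miR-294-transfected and 3.31% in let-7-transfected cells.

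Some libraries stood apart. Of the 50 cells sequenced in 2 runs, 48 gave nearly the same profile in both, with Pearson's r between 0.970 and 0.990. The other 2, 1 let-7-transfected cell (LET_7I_41, r = 0.490) and 1 WT cell (V6.5_32, r = 0.504), had runs as unlike as those of different cells, for which r did not exceed 0.715. In addition, 4 pairs of differently numbered cells had profiles as alike as 2 runs of a cell (r of 0.987 to 0.991), 3 of them let-7-transfected (10 and 11, 70 and 71, 82 and 83) and 1 miR-294-transfected (20 and 21). Chi-square per gene in these pairs was 1.92 to 6.02. Between the like runs of a cell it was 1.26 to 6.78, with a median of 1.56. The pairs may thus be 1 library each and were also counted once as an alternative. The value of 6.02 was that of cells 10 and 11, whose shares of counts in ribosomal protein genes were 4.67% and 5.74%. These shares differ by more than those of the runs of any of the 48 cells. The WT cell matters most, because there are only 16. Its first run had 11.2% of counts in ribosomal protein genes and its second 5.26%, as the plot of the first against the second run shows.

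**Figure D1:**
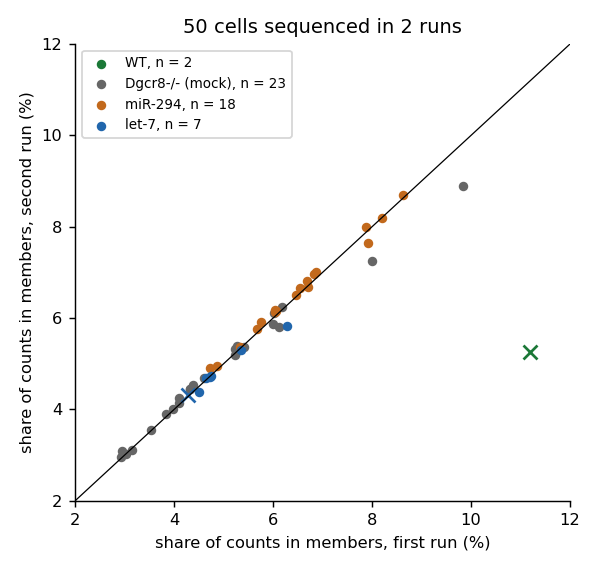
Share of a cell's counts in the 86 ribosomal protein genes in its first (x axis, %) and second sequencing run (y axis, %), for the 50 cells with 2 runs, coloured by condition; the line marks equality and crosses mark the 2 cells with unlike runs. Among the other 48 cells the second minus the first run lay between -0.946 and 0.185 percentage points, and the crossed WT cell fell from 11.2% to 5.26%.

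Ribosomal protein mRNAs were among the most abundant in every condition, but not in equal amounts. Levels of different genes are given here as the authors' FPKM, which is per length. The median of the 86 members' FPKM (each the median over cells) was 752 in Dgcr8-/-, 1000 in WT, 1000 in miR-294-transfected and 731 in let-7-transfected cells. Rpl41, the shortest ribosomal protein, Rps18 and Rpl4 were among the first 4 in every condition, with FPKM in Dgcr8-/- cells of 2869 for Rpl41, 2919 for Rps18 and 2716 for Rpl4. At the other end, Rpl12 had a median FPKM of 9.26 in Dgcr8-/- cells, Rpl5 of 61.3 and Rpl27 of 83.95. Proteins of these low genes are parts of each ribosome too. Most of their values per run were not whole numbers (99.1% for Rpl12, 99.1% for Rpl5 and 96.5% for Rpl27), as RSEM divides reads that also match other sequences. Over the members tested, this percentage ran from 1.52 for Rpl39l to 100 for Rplp1.

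The share of a cell's counts that fell in ribosomal protein genes had its highest median in miR-294-transfected cells. The lowest, median and highest cell had 2.95%, 5.26% and 9.09% in Dgcr8-/- cells and 4.82%, 6.47% and 10.9% in miR-294-transfected cells. In let-7-transfected cells they had 2.85%, 5.08% and 9.28%, and in WT cells 4.51%, 6.01% and 9.71%. The ranges overlapped throughout, but 55 of 58 miR-294-transfected cells lay above the median of Dgcr8-/- cells, against 12 of 16 WT cells and 21 of 48 let-7-transfected cells. Without the WT cell of unlike runs the WT median was 5.90%. The SD between cells was 1.44 percentage points in Dgcr8-/-, 1.58 in WT, 1.32 in miR-294-transfected and 1.21 in let-7-transfected cells, and that of the difference between the runs of a cell was 0.217 over the 48 cells of like runs and 0.873 over all 50. The share does not depend on how cells are scaled to each other.

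Both subunits had the same order of conditions. The small subunit took a median of 2.17% of counts in Dgcr8-/-, 2.33% in WT, 2.52% in miR-294-transfected and 2.02% in let-7-transfected cells, and the large subunit 2.76%, 3.27%, 3.39% and 2.68%, in the same order. The ratio of large-subunit to small-subunit counts was 1.43 in Dgcr8-/- and let-7-transfected cells, 1.47 in miR-294-transfected and 1.53 in WT cells, with coefficients of variation (CV) between cells of 0.0746, 0.0849, 0.0506 and 0.0866. The CV of the whole share was 0.276 in Dgcr8-/- and 0.196 in miR-294-transfected cells, so that the balance of the subunits varied less between cells than their sum. Among Dgcr8-/- cells, the share of ribosomal protein genes went with the mitochondrially encoded share at a Spearman's rho of -0.49 (n = 60 cells), and with the number of genes counted at -0.31. Both shares come from the same counts, and the part of mitochondrial RNA in the difference between conditions was not tested. In the other conditions rho with the mitochondrial share was between 0.00 and 0.06. The share of ribosomal protein genes was also taken of the counts of nuclear protein-coding genes past the count minimum. It was then 5.77% in Dgcr8-/-, 6.54% in WT, 7.03% in miR-294-transfected and 5.81% in let-7-transfected cells. By this denominator let-7-transfected cells lay slightly above Dgcr8-/- cells, not below them.

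**Figure D2:**
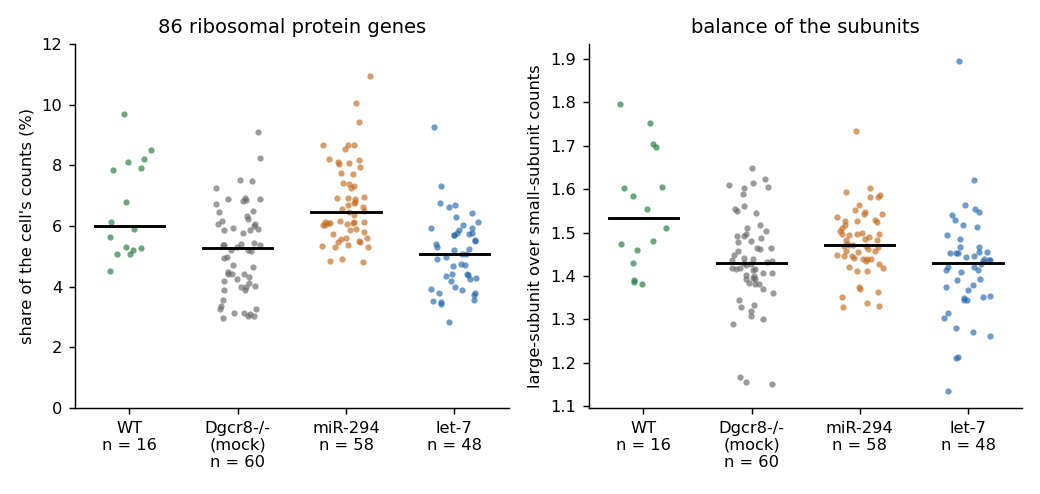
Left, share of each cell's counts in the 86 ribosomal protein genes (%); right, large-subunit over small-subunit counts in each cell. Points are cells, n is their number and bars are medians; the left medians are 6.01% in WT, 5.26% in Dgcr8-/- (mock), 6.47% in miR-294-transfected and 5.08% in let-7-transfected cells, and the right axis does not start at 0.

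To compare single genes, counts were summed over the cells of a condition, divided by the total with TMM factors and given as CPM. A gene was called higher or lower where the ratio of 2 sums passed 1.5-fold, which is 0.585 on the log2 scale, and this is a rule of size and not a test. Counting error was small, with exact Poisson 95% intervals that reached 1.01% to either side in Dgcr8-/- cells and 1.77% in WT cells, as medians over members, and it covers reads only, not cells or cultures. The miR-294 and let-7 comparisons share the Dgcr8-/- cells, as does that of Dgcr8-/- with WT.

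After miR-294, nearly every ribosomal protein gene had a ratio above 0, but most did not pass 1.5-fold. Of 84 members, 83 had a log2 ratio to Dgcr8-/- cells above 0, where 50.1% of all genes did, and the median was 0.47, where that of all genes was 0.00. The quartiles of the members were 0.36 and 0.58. Higher past 1.5-fold were 20 members (23.8%) against 20.2% of all genes, so that by this count the members did not stand out. The count fell to 2 with DESeq size factors and to 10 with ratios of medians over cells. Lower past it were 0 members, against 24.5% of all genes. Among the 3238 genes whose mean count was 100 or more, which included 81 members, 1877 were above 0 and the median was 0.10, and 14.4% of them were higher past 1.5-fold, against 22.2% of those 81 members. The 30 small-subunit members had a median of 0.41, the 43 of the large subunit 0.50 and the 3 of the stalk 0.61. Past 1.5-fold were 14 of the large subunit, 2 of the small subunit and 2 of the stalk. With cells scaled by DESeq size factors the median of all genes was -0.28, that of the members 0.20, and 76 members were above 0. A change of scaling moves all genes nearly alike, so the members' distance of 0.47 from the median of all genes could hardly change.

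The stalk, which recruits translation factors to the large subunit, shows the pattern. Rplp0, which anchors it, had a lowest, median and highest cell of 365, 1744 and 5331 CPM in Dgcr8-/- cells and of 1052, 2683 and 5861 CPM in miR-294-transfected cells. The ranges overlapped, and 54 of 58 miR-294-transfected cells lay above the Dgcr8-/- median, with a log2 ratio of the sums of 0.61. Rplp1 and Rplp2, which bind to it as dimers, had log2 ratios of 0.70 and 0.53.

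Of the 5 members with the highest ratios, 3 were of the large subunit, 1 was a copy and 1 was Rps19bp1. Rpl12, which sits at the base of the stalk, had a lowest, median and highest cell of 0, 10.5 and 101 CPM in Dgcr8-/- cells and of 3.06, 40.4 and 178 CPM in miR-294-transfected cells, with a log2 ratio of 1.38. The ranges overlapped, and 51 of 58 miR-294-transfected cells lay above the Dgcr8-/- median. Of the run values of Rpl12, 99.1% were divided counts, and the part of this in its ratio was not tested. Rpl27, of the large subunit, had medians of 44.1 and 99.1 CPM (0 to 239 and 20.2 to 366) and a log2 ratio of 0.99. For Rpl27, 80.1% of the counts of the gene and its -ps copies lay in the copies, and with these added the log2 ratio was 0.56. Rps27l, a copy of Rps27 that p53 is known to induce, had medians of 114 and 196 CPM (38.3 to 347 and 57.6 to 540) and a log2 ratio of 0.81. Rpl31, near the exit of the nascent chain, had medians of 150 and 266 CPM (73.5 to 387 and 121 to 732) and a log2 ratio of 0.79. In Rpl31, 55 of 58 miR-294-transfected cells lay above the Dgcr8-/- median. Rps19bp1 had medians of 5.24 and 16.1 CPM and a log2 ratio of 0.98.

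A few members did not share these ratios. Rpl5, which carries the 5S rRNA into the ribosome and binds Mdm2 when assembly fails, was the only member below 0. Its lowest, median and highest cell had 0.744, 76.01 and 896 CPM in Dgcr8-/- cells and 6.23, 62.2 and 361 CPM in miR-294-transfected cells, a log2 ratio of -0.52. The ranges overlapped, and the CV between Dgcr8-/- cells was 1.24, where the median member had 0.436. Of the run values of Rpl5, 99.1% were divided counts, and the part of this in its ratios in the 3 comparisons was not tested. Rpl10, Rpl22l1 and Rps23 followed with log2 ratios of 0.08, 0.15 and 0.16, and each of the 3 was below 0 with DESeq size factors (-0.20, -0.14 and -0.10). With its -ps copies, which held 65.9% of the counts, Rpl10 had a log2 ratio of 0.37. The members with a miR-294 seed match in their longest annotated 3′ UTR were above 0 like nearly all members. Their log2 ratios were 0.73 for Rpl11, 0.37 for Rpl23, 0.50 for Rpl37, 0.36 for Rps15a, 0.53 for Rps20 and 0.32 for Rpsa. Whether the mRNAs of these cells carry the matches was not measured.

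After let-7, ribosomal protein genes stayed near the level of Dgcr8-/- cells. The median log2 ratio of the members was -0.06, with quartiles of -0.19 and 0.06, and the median of all genes was 0.00. Above 0 were 28 of 84 members (33.3%), against 50.1% of all genes and 37.1% of the genes with mean counts of 100 or more, whose median was -0.17. The sign of the members' median is not settled, as it was 0.04 with total counts alone and 0.10 with DESeq size factors, where the median of all genes was 0.11 and 0.18. Only 1 member was higher past 1.5-fold (25.1% of all genes) and 1 was lower (22% of all genes). The member that was higher was Rps19bp1 (log2 ratio 0.70), and the member that was lower was Rpl5 (log2 ratio -1.19).

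Rpl5 had a lowest, median and highest let-7-transfected cell of 0, 11.8 and 331 CPM, against 0.744, 76.01 and 896 CPM in Dgcr8-/- cells. The ranges overlapped, 3 of 48 let-7-transfected cells had no count, and 15 of 48 lay above the Dgcr8-/- median. Here too, the part of its divided counts (99.1% of run values) was not tested. Of other members, Rpl10 had a log2 ratio of -0.57, with medians of 297 CPM in Dgcr8-/- and 185 CPM in let-7-transfected cells. With the -ps copies added its log2 ratio was -0.27. Rpl7 (-0.44) and its paralog Rpl7l1 (-0.46) were also at the low end.

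Within the stalk the members parted. Rplp0 had a log2 ratio of -0.44, with medians of 1744 CPM in Dgcr8-/- and 1177 CPM in let-7-transfected cells, and 9 of 48 cells lay above the Dgcr8-/- median. Rplp1 had a log2 ratio of 0.30, with medians of 303 and 408 CPM, and 42 of 48 cells lay above it. Every run value of Rplp1 was a divided count, and the part of this in the contrast was not tested. At the high end stood also Rpl39l (0.55), Rpl12 (0.54) and Rpl22l1 (0.31). For Rpl12 the ratio of the medians over cells gave -0.33, as the highest let-7-transfected cell had 264 CPM and the median 8.03. Rpsa, whose longest annotated 3′ UTR holds a let-7 seed match, had a log2 ratio of -0.20.

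Against WT cells, most ribosomal protein genes had a ratio below 0 in Dgcr8-/- cells, but most did not pass 1.5-fold. The median log2 ratio of Dgcr8-/- to WT was -0.53, with quartiles of -0.73 and -0.30, where that of all genes was 0.08. Above 0 were 7 of 84 members, against 52.9% of all genes. Lower past 1.5-fold were 34 members (40.5%), against 26.3% of all genes, and higher were 2, against 35.2%. Of the 3238 genes with mean counts of 100 or more, 43.1% were above 0 and the median was -0.14. Of these genes 25.2% were lower past 1.5-fold and 20.1% higher, against 39.5% and 2.47% of the 81 members among them. The large subunit had a median of -0.58, the small subunit of -0.41 and the stalk of -0.43. Lower past 1.5-fold were 21 of 43 large-subunit members, 6 of 30 small-subunit members and 5 of 7 copies. Without the cells of unlike runs the median was -0.46, with 27 members lower and 3 higher. Leaving out each of the 16 WT cells in turn gave 27 to 42 lower and 1 to 3 higher. With DESeq size factors the median of the members was -0.24, with 18 members lower and the median of all genes at 0.37. The distance of 0.61 from all genes was as with TMM, which a change of scaling could hardly alter.

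Rpl9, of the large subunit, separated these cells most plainly among the members named here. Its lowest, median and highest cell had 449, 1035 and 1910 CPM in Dgcr8-/- and 1138, 2020 and 2919 CPM in WT cells. None (0 of 60) of the Dgcr8-/- cells reached the WT median, although the ranges overlapped, and the log2 ratio was -0.99. In miR-294-transfected cells Rpl9 had 840, 1685 and 2910 CPM, and in let-7-transfected cells 481, 864 and 1660 CPM. The order of its medians was WT, miR-294-transfected, Dgcr8-/- and let-7-transfected, where WT and miR-294-transfected cells differed by less than the SD between cells (458 and 482 CPM), as did Dgcr8-/- and let-7-transfected cells (279 and 275 CPM). Rpl27 had a log2 ratio of Dgcr8-/- to WT of -1.36 (-0.89 with its -ps copies), Rpl35a of -1.23, Rpl36a of -1.20 and Rpl31 of -1.18. For Rpl31, whose WT cells had 170 to 703 CPM with a median of 339, 1 of 60 Dgcr8-/- cells lay above the WT median. Rps19bp1 had the lowest ratio (-1.86), but it was 0.34 without the WT cell of unlike runs, which held the highest value of 311 CPM.

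Few members had a ratio of Dgcr8-/- to WT above 0. Besides Rpl10l and Rpl5 (0.68), which passed 1.5-fold, they included Rpsa (0.38) and Rps2 (0.21), and, named after their values were seen, Rpl18 (0.05) and Rpl13a (0.04). Rpl5 no longer passed without the WT cell V6.5_80 (0.55) or V6.5_37 (0.58). Rpsa, a small-subunit protein also known as the laminin receptor, had medians of 2650 CPM (770 to 6165) in Dgcr8-/- and 1979 CPM (1378 to 3376) in WT cells. In miR-294-transfected cells its median was 3402 CPM (2175 to 6003). Rps6, the small-subunit protein phosphorylated by S6 kinase, had a log2 ratio to WT of -0.56, with medians of 1411 CPM in Dgcr8-/- and 2027 CPM in WT cells. Rps27a, which is made as a fusion with ubiquitin, had a log2 ratio to WT of -0.41, with medians of 639 and 911 CPM.

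**Figure D3:**
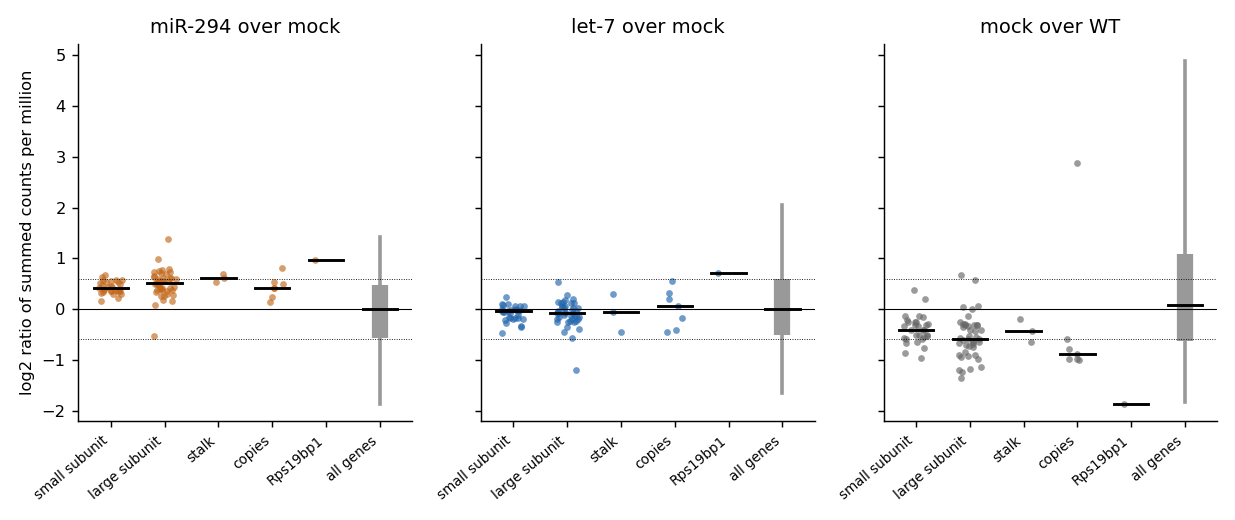
Log2 ratio of summed CPM in the 3 comparisons for the 84 members past the count minimum, by role (points are genes, bars medians), and for all 11186 genes (thick grey, quartiles; thin grey, 5th to 95th percentile; bar, median). Dotted lines mark 1.5-fold; the members lie above 0 after miR-294 (median 0.47), near 0 after let-7 (median -0.06) and below 0 for Dgcr8-/- over WT (median -0.53).

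**Figure D4:**
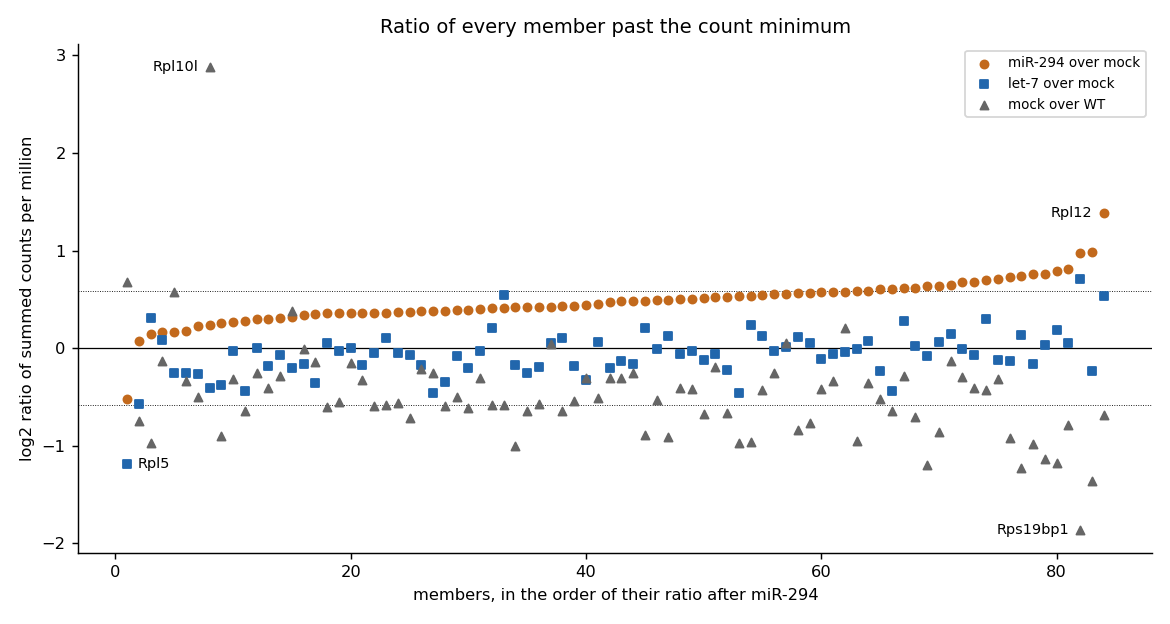
Log2 ratio of summed CPM (y axis) of each of the 84 members in the 3 comparisons, with the members in the order of their miR-294 ratio (x axis) and dotted lines at 1.5-fold. The exceptions stand out: Rpl5, with 99.1% of its run values divided, at -0.52 and -1.19 after miR-294 and let-7, and Rpl10l at 2.88 for Dgcr8-/- over WT.

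**Figure D5:**
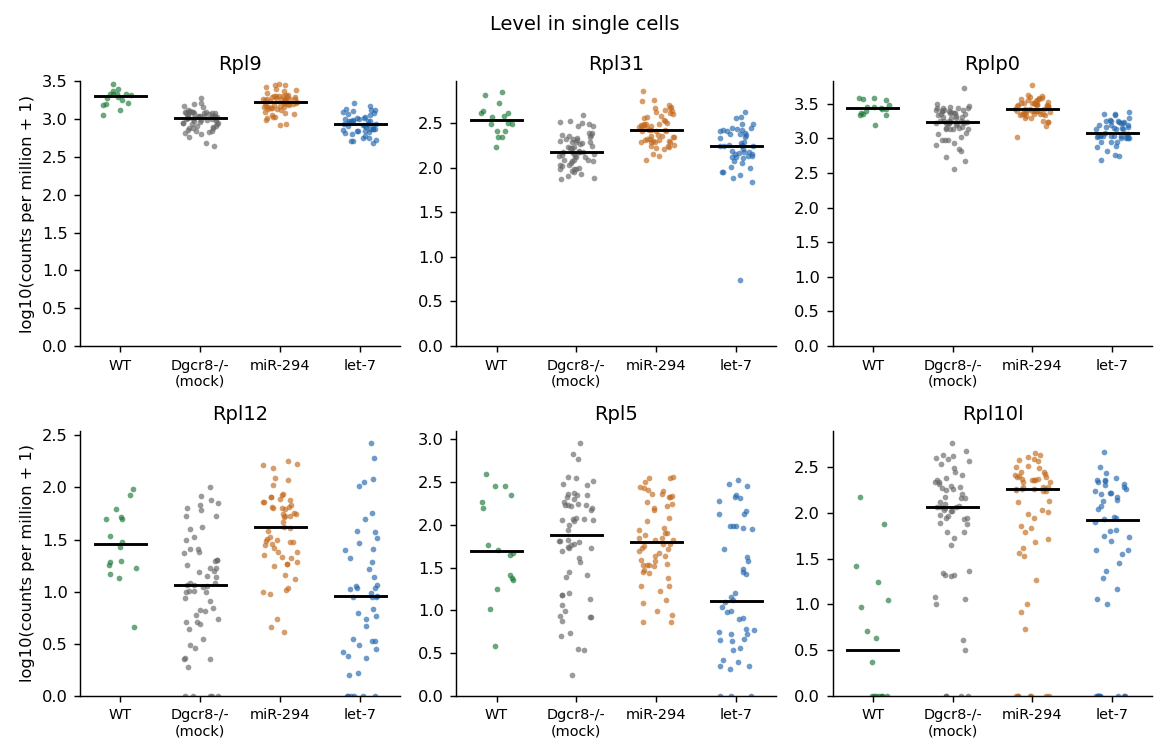
Level of 6 members in single cells, as log10 of CPM + 1, by condition (points are cells, bars medians). Rpl9, Rpl31 and Rplp0 form narrow bands that shift between conditions, while Rpl12, Rpl5 and Rpl10l spread widely, with Rpl10l at a median of 2.33 CPM in WT and 115 CPM in Dgcr8-/- cells.

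The copies gave the largest single difference. Rpl10l, a retrocopy of Rpl10 best known from the testis, where it stands in for the X-linked gene, had a lowest, median and highest cell of 0, 2.33 and 149 CPM in WT cells and of 0, 115 and 579 CPM in Dgcr8-/- cells. In miR-294-transfected cells these were 0, 182 and 455 CPM, and in let-7-transfected cells 0, 82.7 and 470 CPM. The log2 ratio of Dgcr8-/- to WT was 2.88, and 55 of 60 Dgcr8-/- cells lay above the WT median. In WT, 7 of 16 cells had no count, and 2 cells, V6.5_80 and V6.5_25, held 84.2% of the 463 counts. Without V6.5_80 the log2 ratio was 3.65, and over the other alternatives it ran from 2.71 to 5.72, the latter as a ratio of medians over cells. Per length, Rpl10l had a median FPKM of 2.485 in WT and 127 in Dgcr8-/- cells, against 680.5 and 436 for Rpl10. Of the counts of Rpl10 and Rpl10l together, Rpl10l held 3.64% in WT and 31.9%, 34.4% and 34.5% in Dgcr8-/-, miR-294-transfected and let-7-transfected cells. All 3 conditions on the Dgcr8-/- background were thus above WT. Each genotype is 1 line, so that genotype and line cannot be told apart. Reads of Rpl10l were mostly whole, with 7.88% of run values divided, against 98.7% for Rpl10.

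Other copies made up different shares of their families. Rps27rt, a retrocopy of Rps27, and Rps27l held almost all counts of that family, with Rps27rt at medians of 271 CPM in Dgcr8-/-, 428 in WT, 337 in miR-294-transfected and 302 in let-7-transfected cells, while Rps27 had a median of 0 in every condition. The level of Rps27 itself was therefore not determined. Rpl36al and Rpl36a had close levels per length, with median FPKM of 363 and 361 in Dgcr8-/- and of 631 and 593 in WT cells. The shares of a copy in the counts of both genes are not per length and serve to compare conditions. Rpl22l1, which can replace Rpl22, held 30.8% of the counts of both in Dgcr8-/-, 36% in WT, 27% in miR-294-transfected and 39.8% in let-7-transfected cells. Rpl39l held 19.4%, 16.1%, 21.1% and 31.4% of the counts with Rpl39, in the same order, and 11 of 48 let-7-transfected cells had no Rpl39l count. Rpl7l1, thought to act in assembly, held 16.3%, 19.6%, 18.8% and 16.2% of the counts with Rpl7.

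Ribosomal protein genes have left many processed pseudogenes, and these bear on the values. The files held 246 -ps symbols of these genes, of which 20 passed the count minimum, and they took a median of 0.306% of counts in Dgcr8-/-, 0.369% in WT, 0.350% in miR-294-transfected and 0.278% in let-7-transfected cells. Their median log2 ratios were 0.46 after miR-294, -0.03 after let-7 and -0.35 for Dgcr8-/- over WT. The 32 members with under 50% of divided run values had medians of 0.42, -0.01 and -0.59 in these comparisons, and the 52 with more had 0.50, -0.07 and -0.43. Another 5 symbols annotated as pseudogenes without -ps passed the count minimum. For Dgcr8-/- over WT, Rps3a2, Rps3a3 and Rpl37rt had log2 ratios of -0.50, -0.50 and -0.21, as most members had below 0. The other 2 were above 0, with Rps4l at 659 CPM in Dgcr8-/- and 350 in WT, and Rps12l1 at 59.5 and 8.79. Pseudogenes whose symbols do not start like those of members were not looked for. The -ps share need therefore not be the whole pseudogene share. For Rpl5, 99.1% of run values were divided, while -ps copies held 0.248% of the counts of gene and copies. For Rplp1 these values were 100% and 0%. Where the other divided reads went was not traced.

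Single members varied less between cells than abundant genes as a whole. The median CV over 84 members was 0.436 in Dgcr8-/-, 0.403 in WT, 0.357 in miR-294-transfected and 0.422 in let-7-transfected cells. Over the 3238 genes with mean counts of 100 or more it was 0.937, 0.902, 0.817 and 0.989, and these were not matched to the members by level. The evenest member was Rpl4 in miR-294-transfected cells, with a CV of 0.203, and Rps18 in let-7-transfected cells, with 0.252. The most uneven were Rps19bp1 in all but let-7-transfected cells (CV up to 2.57, in WT) and Rpl12 in let-7-transfected cells (1.93). Members also rose and fell together from cell to cell. The median Spearman's rho between pairs of members was 0.39 over 60 Dgcr8-/- cells, 0.52 over 16 WT, 0.40 over 58 miR-294-transfected and 0.40 over 48 let-7-transfected cells, where that of the abundant genes was 0.01 to 0.02. These cells share a chip, and the shared rise of many genes within 1 total makes such values a description only. Sequencing the same library again moved a member's log2 count by an SD of 0.145 in the median, and Rps12 by 2.16.

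Where promoters were at hand, ribosomal protein genes shared letters around their start. RefSeq windows from 250 bases before to 50 after the start were found for 66 of 86 members. The ETS-type letters CCGGAAG, on either strand, were in 26 of the 66 (39.4%) and in 9.93% of all 27025 symbols with a window. Unlike the genes set beside the members for 3′ UTRs, these symbols were not limited to genes past the count minimum. The Sp1-type letters GGGCGG, on either strand, were in 62.1% and 38.2%, the E-box CACGTG in 9.09% and 8.09%, and TATAAA, on either strand, in 10.6% and 15.7%. On the sense strand within 20 bases of the start, CTTTCC was in 18.2% and 2.30%, and the shorter CTTTC, which includes these, in 30.3% and 6.44%. Members with CCGGAAG had median log2 ratios of 0.50, -0.05 and -0.55 in the 3 comparisons and those without it 0.44, -0.06 and -0.59, in the same order. For CTTTC near the start these medians were 0.53, 0.02 and -0.41 in the 19 tested members with it, and 0.44, -0.11 and -0.60 in the 45 without it. Neither split was tested. Windows from 40 bases before to 20 bases from the start are shown for members at the ends of the comparisons, from GRCm38.p6 and in the sense of the gene, with CCGGAAG and CTTTCC in capitals.
Rps27l (chr9:66946046-66946105, plus strand): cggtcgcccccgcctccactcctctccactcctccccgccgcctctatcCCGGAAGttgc
Rpl31 (chr1:39367811-39367870, plus strand): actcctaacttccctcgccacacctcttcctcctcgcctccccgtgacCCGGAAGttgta
Rpl35a (chr16:33056442-33056501, plus strand): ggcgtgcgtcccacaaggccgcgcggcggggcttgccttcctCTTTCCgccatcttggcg
Rpl12 (chr2:32961672-32961731, plus strand): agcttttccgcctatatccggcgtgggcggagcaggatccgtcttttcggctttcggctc
Rpl27 (chr11:101442205-101442264, plus strand): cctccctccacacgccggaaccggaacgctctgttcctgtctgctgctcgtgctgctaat
Rpl10 (chrX:74270776-74270835, plus strand): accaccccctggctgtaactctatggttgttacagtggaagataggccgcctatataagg
Rpl5 (chr5:107900488-107900547, plus strand): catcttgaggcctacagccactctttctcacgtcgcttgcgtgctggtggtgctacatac
Rps27l, Rpl31 and Rpl35a carry capitals in these windows. Rps27l and Rpl35a also have windows that are not shown, among them for each gene a window without these letters. Rpl12 and Rpl27, which had the 2 highest ratios after miR-294, carry none, nor do Rpl10 and Rpl5 from the low end, which says only that these letters are not in these windows.

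Genes that work with the ribosomal proteins were read from lists by the same rule. Of 22 other TOP mRNAs, 20 were above 0 after miR-294 (median 0.43), 4 after let-7 (median -0.30) and 5 for Dgcr8-/- over WT (median -0.40). Of all genes, 50.1%, 50.1% and 52.9% were above 0. Past 1.5-fold, 18.2% of the TOP mRNAs were higher after miR-294, against 20.2% of all genes. Lower past it were 4.55% after let-7 and 31.8% for Dgcr8-/- over WT, against 22% and 26.3% of all genes. Among the TOP mRNAs Eef1g, a subunit of elongation factor 1, had log2 ratios of 0.82, -0.47 and -0.64, and Tpt1 of 0.10, 0.41 and 0.20. Fau, which encodes a ribosomal protein fused to a ubiquitin-like sequence and so escapes the symbol rule, had log2 ratios of 0.44 after miR-294, -0.30 after let-7 and -0.49 to WT. Rack1, a scaffold on the small subunit, had 0.42, -0.48 and -0.25.

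Genes that assemble the ribosome, and those of the mitochondrial ribosome, were read beside them. Of 50 genes of ribosome biogenesis, 48 were above 0 after miR-294 (median 0.48), and 16 were higher past 1.5-fold (32% against 20.2% of all genes). After let-7, 9 were above 0, with a median of -0.51, and 19 were lower past 1.5-fold (38% against 22% of all genes). For Dgcr8-/- over WT, 10 were above 0 (median -0.58), and 25 were lower (50% against 26.3%). Of 77 mitochondrial ribosomal proteins, which belong to another ribosome, 68 were above 0 after miR-294 (median 0.45), 29 after let-7 (median -0.16) and 26 for Dgcr8-/- over WT (median -0.36). Higher past 1.5-fold after miR-294 were 36.4% of these, against 20.2% of all genes. Lower past it were 23.4% after let-7 and 40.3% for Dgcr8-/- over WT, against 22% and 26.3% of all genes. Of 15 regulators from the Myc and mTOR pathways, 9 were above 0 after miR-294, 3 after let-7 and 6 for Dgcr8-/- over WT. Of all genes, 50.1%, 50.1% and 52.9% were above 0 in the 3 comparisons, so that 9 and 6 of 15 regulators lie near these shares. Mycn had summed levels of 55.1 CPM in Dgcr8-/-, 20.7 in WT, 90.5 in miR-294-transfected and 7.74 in let-7-transfected cells, with cell medians of 27.9, 12.9, 70.2 and 0 CPM. Myc had summed levels of 6.32, 46.6, 13.5 and 4.63 CPM in the same order, with cell medians of 0, 0.974, 0 and 0. Of its 1076 WT counts, 85.7% lay in V6.5_32, the WT cell of unlike runs. Larp1, which holds TOP mRNAs back when mTOR is inactive, had summed levels of 71.7, 165, 123 and 97.1 CPM in Dgcr8-/-, WT, miR-294-transfected and let-7-transfected cells. Eif4e, the cap-binding factor, had 378, 632, 519 and 175 CPM.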

How the data were processed

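Libraries of single cells were made by the authors on the Fluidigm C1 with the Nextera XT kit, and low-quality cells, 1 miR-294-transfected and 5 let-7-transfected cells without target downregulation had been removed. For each run the authors deposited RSEM 1.2.19 expected counts (not normalized) and FPKM, on GENCODE M4 with standard parameters, in which a read matching several genes is divided between them. The authors had also discarded capture sites with more than 1 cell by eye, and no doublet caller was run. Here the expected counts of a cell's runs were added and rounded. Symbols, types and positions came from GENCODE M21 (GRCm38), which matched 41674 of 42493 identifiers. Counts were summed over the cells of a condition, scaled with TMM factors (edgeR 4.0.16, R 4.3.3), and compared after adding 0.5 counts to each sum. Genes whose mean count over cells was 5 or more were kept. FPKM of a cell was the mean over its runs weighted by run total, and was used for levels between genes only. Total counts lay between 513521 and 3979274 per cell. edgeR's quasi-likelihood test was not used, since each condition is 1 sample and cells are not replicates, so no p-values are given. The calculation of the ratio was run on simulated counts with known ratios. These had independent genes and no divided reads or chip effects, so they check the arithmetic and not the comparisons of conditions.

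Values are named for the 5 members with the highest and the 5 with the lowest log2 ratio in each comparison, the stalk, Rpsa, Rps6, Rpl9, Rps27a, Fau and the copies with the member they resemble, except a few genes that are not reported here; other names were chosen after the values were seen. The members and lists were chosen with earlier results of these data known. Alternatives were other scalings, run and cell selections, folds and count minima, and, chosen after seeing the data, the addition of -ps copies and the leaving out of cells with unlike runs or alike profiles and of each WT cell in turn. Python 3.11.15, numpy 2.4.6, pandas 2.3.3, scipy 1.17.1 and matplotlib 3.10.9 were used.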

Additional observations from a re-analysis of the deposited data

How the results depend on the processing

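Each condition is 1 sample, and no result has a test, so only sizes can be followed. With total counts alone the medians after miR-294 and let-7 and for Dgcr8-/- over WT were 0.41, 0.04 and -0.43, with 13 members higher and 1 lower after miR-294 and 3 higher after let-7. With DESeq size factors, for which 74 of the 862 genes counted in every cell are members, they were 0.20, 0.10 and -0.24, with 2 members higher and 1 lower after miR-294, 3 higher after let-7 and 18 lower in Dgcr8-/- over WT. With ratios of medians over cells they were 0.33, -0.02 and -0.39, with 10 higher after miR-294, 3 higher and 2 lower after let-7 and 4 higher in Dgcr8-/- over WT. Without a count minimum the let-7 median was -0.10, with 3 higher and 2 lower. With first runs only the miR-294 median was 0.42, with 4 lower after let-7 and 1 higher in Dgcr8-/- over WT. Without cells below 1000000 counts the miR-294 median was 0.43, 2 members were lower after let-7, and the share was 5.38% in Dgcr8-/- and 5.90% in WT cells. With alike pairs counted once, 2 were higher after let-7 and its share was 5.13%. Without the cells titled MIR_294_, 21 members were higher after miR-294, with a median of 0.47 and a share of 6.45%. Relative to the median of all genes, the median for Dgcr8-/- over WT was -0.61.

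Without the cells of unlike runs, 2 members were lower after let-7, the median for Dgcr8-/- over WT was -0.46, Rps19bp1 had 0.34 there in place of -1.86, and the WT share was 5.90%. Without these and the alike cells, 3 members were higher after let-7, its median was 0.01, the median for Dgcr8-/- over WT was -0.46 and Rps19bp1 was again at 0.34, while the share was 5.90% in WT, 6.53% in miR-294-transfected and 5.25% in let-7-transfected cells. Leaving out each WT cell in turn, chosen after seeing the data, the median for Dgcr8-/- over WT ran from -0.58 to -0.46, with 27 to 42 lower and 1 to 3 higher, and Rps19bp1 from -2.01 to 0.34. Past a smaller fold (0.322 on the log2 scale), 69 members were higher and 1 lower after miR-294, 3 and 11 after let-7, and 4 and 57 in Dgcr8-/- over WT. At 2-fold, 1 was higher after miR-294, 0 after let-7, and 1 higher and 7 lower in Dgcr8-/- over WT. The shares of all genes past the smaller fold and past 2-fold were not counted, so these counts describe the members only. The share in summed counts was 5.22% in Dgcr8-/-, 6.47% in WT, 6.73% in miR-294-transfected and 5.14% in let-7-transfected cells, and of nuclear protein-coding counts 5.77%, 6.54%, 7.03% and 5.81%. With the latter denominator the order of Dgcr8-/- and let-7-transfected cells was reversed. Where values moved, the cause was not tested. No paired analysis was possible because the replicate numbers in the titles count sequencing runs of 1 cell and the comparisons come from no test.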
